A study of Homo sapiens with 4 samples.

Results

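The distal end of the short arm of chromosome 1, called 1p36 here, was described by the ATAC-seq peaks of SK-N-BE(2)C cells, a MYCN-amplified neuroblastoma (NB) line. The members were chosen by position alone: every peak on chromosome 1 whose end lies at or below 28 Mb. This rule took 733 of the 47610 peaks in the control list and 656 of the 42682 peaks in the sgSNHG1 list. The border is a coordinate on GRCh38, not the edge of a cytogenetic band. In both lists the last peak inside it lay at the promoter of RPA2, a subunit of the replication protein A complex, enriched 11.3-fold in control and 9.71-fold in sgSNHG1. The first peak outside lay at the promoter of EYA3, at 7.84 and 9.73.

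ATAC-seq uses the Tn5 transposase to cut and tag DNA that is not packed in nucleosomes, so that a pile of fragments marks accessible chromatin. Accessible sites fall into promoters, which are open in many cell types, and distal elements such as enhancers, which are more particular to a cell type. The 1p36 region is gene rich and is often deleted in NB, above all in tumors with MYCN amplification, which is why several of its genes (CHD5, CAMTA1, KIF1B, CASZ1, ARID1A, TP73 and the host gene of miR-34a) have been put forward as tumor suppressors. SNHG1 lies on another chromosome, makes a long non-coding RNA and also hosts small nucleolar RNAs.

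Control cells carried a non-targeting guide RNA and are wildtype at SNHG1. The sgSNHG1 cells received Cas9 with guide RNAs against SNHG1 and are labelled as an SNHG1 knockout. The paper states that the knockout was not complete and that SNHG1 expression was repressed. Both kinds of cell were selected with puromycin and derived as sorted stable clones, and which clone stood behind each library was not named in the sources used here, so a difference between the lists cannot be told apart from a difference between clones. Each group had 2 replicates from independent experiments, merged by the authors ahead of peak calling, and 1 list stood for each group. No spread between replicates could be measured, and no test between the conditions was possible. The intervals given here are 95% intervals that cover counting error over peaks only, and neighbouring peaks are not independent replicates. A peak at the median of the 1p36 set held 23 fragments at its summit in control and 20 in sgSNHG1, so a single peak carries a large counting error. The genome-wide background was 2.20 fragments in control and 1.72 in sgSNHG1, so fragment counts of the lists are not on the same scale.

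Sequences of 7 promoters and 1 repeat array are shown in this report, for sites whose values are also given. The first set holds 101 bases around the control summit at MTOR (chr1:11262582-11262682, minus strand), which had the highest fold enrichment of any protein-coding promoter in 1p36, at CAMTA1 (chr1:6785051-6785151, plus strand), whose gene body held the most peaks, at KIF1B (chr1:10210349-10210449, plus strand), and at STMN1 (chr1:25906440-25906540, minus strand), all read 5′ to 3′ on the gene's strand of GRCh38. Capitals mark CCAAT (the NF-Y sequence), GGGCGG (the SP sequence) and CACGTG (the E-box bound by MYC and MYCN), on either strand.
MTOR: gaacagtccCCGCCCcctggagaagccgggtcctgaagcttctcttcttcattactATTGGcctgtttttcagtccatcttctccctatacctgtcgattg
CAMTA1: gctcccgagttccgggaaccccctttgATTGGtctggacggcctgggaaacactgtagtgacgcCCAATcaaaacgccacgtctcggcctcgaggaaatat
KIF1B: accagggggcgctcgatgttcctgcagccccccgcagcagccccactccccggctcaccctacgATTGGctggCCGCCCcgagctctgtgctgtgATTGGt
STMN1: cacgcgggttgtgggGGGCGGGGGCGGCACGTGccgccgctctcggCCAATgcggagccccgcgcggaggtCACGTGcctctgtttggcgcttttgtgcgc
In windows of this length around control summits, CCAAT stood in 13.2% of 1p36 peaks and 14.8% of the other chromosome 1 peaks, GGGCGG in 20.9% and 13.9%, and CACGTG in 3.68% and 2.09%. The presence of a sequence does not show that a factor was bound.

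The second set shows the 101 bases before the transcription start site (TSS) of CDK11A (chr1:1724358-1724458, minus strand), CDK11B (chr1:1659013-1659113, minus strand) and NBL1 (chr1:19596878-19596978, plus strand). CDK11A and CDK11B are near-identical copies whose promoters are read here as separate peaks. The TSS of NBL1 is the start of its gene record, which may not be its own promoter, as described below. The peak there had the lowest ratio of fold enrichment of any protein-coding gene in 1p36. Capitals mark CCGGAAG, 1 form of the sequence bound by ETS factors. Other forms with GGAA, as in the CDK11A and CDK11B stretches, are not marked.
CDK11A: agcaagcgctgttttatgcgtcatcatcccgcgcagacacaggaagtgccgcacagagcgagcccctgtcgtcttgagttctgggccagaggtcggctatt
CDK11B: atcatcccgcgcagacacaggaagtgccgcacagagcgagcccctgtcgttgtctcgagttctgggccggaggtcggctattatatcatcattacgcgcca
NBL1: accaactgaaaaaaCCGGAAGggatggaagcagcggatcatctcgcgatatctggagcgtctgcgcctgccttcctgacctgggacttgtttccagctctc
Of the 20-base words in the control peak at CDK11A, 42.7% were also found in the control peak at CDK11B. CCGGAAG stood within 50 bases of 3.96% of the 1p36 control summits and 2.16% of the other control summits on chromosome 1.

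The 1p36 peaks lay in genes more often than peaks elsewhere on the chromosome. Of the 733 control peaks, 284 were at promoters (within 3 kb of the TSS of a gene record), 84 in other exons, 264 in introns and 101 between genes. Intergenic peaks made up 13.8% of the control members (95% interval 11.5% to 16.5%) against 22.1% of control peaks on the rest of chromosome 1, a difference of -8.31 percentage points (-10.9 to -5.36). In the sgSNHG1 list the shares were 14.8% and 22.6%, a difference of -7.84 points (-10.7 to -4.67). The promoter share was 38.7% in control (35.3% to 42.3%) against 35.0% on the rest of the chromosome, and the interval of that difference only just cleared 0 (3.76 points, 0.0118 to 7.60). In sgSNHG1 it was 40.7% against 36.5% (4.17 points, 0.187 to 8.24). Against the rest of the short arm alone, the control difference was 3.08 points, with an interval that included 0 (-1.07 to 7.30).

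**Figure D1:**
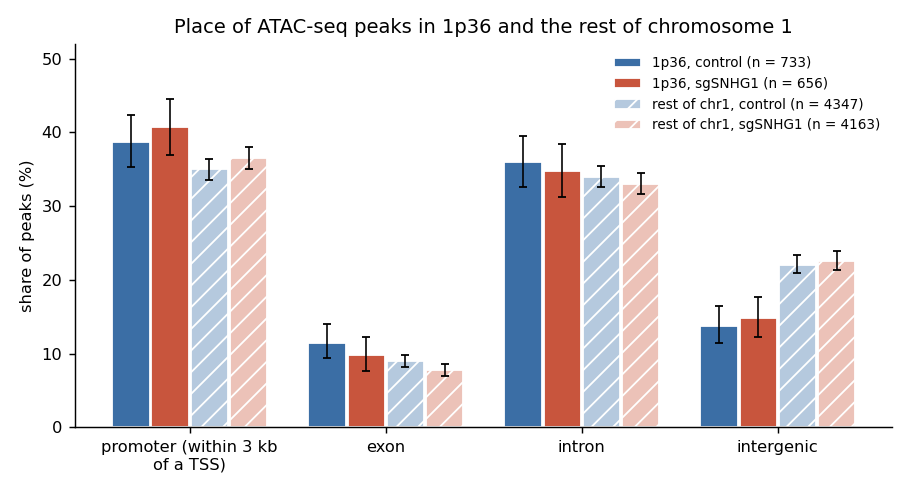
Share of peaks (%) by place in the gene annotation, for 1p36 (solid bars) and the rest of chromosome 1 (hatched bars) in the control and sgSNHG1 lists. Error bars are 95% Wilson intervals over peaks; the intergenic bars of 1p36, at 13.8% and 14.8%, stand below the 22.1% and 22.6% of the rest of the chromosome, while the other classes lie closer together.

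Although 1p36 is dense in genes, it held fewer peaks for each of them. There were 26.2 control peaks per Mb in 1p36 and 17.7 per Mb in the rest of the short arm. Per protein-coding gene, 1p36 had 1.87 control peaks over its 393 genes and the rest of chromosome 1 had 2.61 over 1668 genes. A promoter peak in at least 1 list was present at 238 of the 393 protein-coding genes in 1p36, or 60.6% (55.6% to 65.3%), against 67.7% on the rest of the chromosome, a difference of -7.19 points (-12.6 to -1.95). The difference was larger against the rest of the short arm, where 72.4% had one (-11.8 points, -17.7 to -6.0), and its interval included 0 against the long arm, where 64.5% had one (-3.94 points, -9.66 to 1.67).

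Several gene families of 1p36 had few or no promoter peaks. These families were chosen after the values were known. Of all 393 protein-coding 1p36 genes, 155 had no promoter peak, and the 3 ZBTB and 2 UBE genes all had one in at least 1 list. None of the 22 PRAMEF genes, a cancer-testis family between positions 12773738 and 13421328, had a promoter peak in either list. The same held for the 6 PLA2G genes, which encode secreted phospholipases, and the 4 CELA genes, which encode pancreatic elastases. Reads with several hits were removed per the methods. Whether this kept peaks from families of similar copies, such as the PRAMEF genes, was not tested. Among the 5 PADI genes, which encode peptidylarginine deiminases, PADI2 alone had one (fold enrichment 4.32 in control and 4.47 in sgSNHG1). Among the 7 TNFRSF genes, which encode receptors of the TNF family, TNFRSF18 alone had one (3.82 and 3.67). Among the 4 HES genes, HES3 and HES5 had low peaks within the promoter window in both lists. The sites of HES3 did not overlap. Those of HES5 lay past the end of the gene, with summits 2692 bases from its TSS in control and 2726 in sgSNHG1. HES2 and HES4 had no promoter peak.

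Peaks in 1p36 were also weaker than elsewhere on the chromosome. Their median fold enrichment was 5.07 in control (4.93 to 5.22) and 5.09 in sgSNHG1 (4.90 to 5.29), against 5.55 (5.45 to 5.62) and 5.57 (5.49 to 5.70) on the rest of chromosome 1. The share of peaks with a -log10 q of at least 10 was 44.1% against 54.1% in control, a difference of -9.99 points (-13.8 to -6.09), and 34.9% against 48.1% in sgSNHG1, a difference of -13.2 points (-17.1 to -9.18). Fold enrichment is the pileup at the summit over the local background, with 1 added to each. At distal peaks that background, as a multiple of the list's genome-wide level, had a median of 1.63 in control (1.59 to 1.68), the same as the 1.63 of the rest of chromosome 1 but above the 1.40 of the rest of the short arm. In sgSNHG1 the median was 1.77 in 1p36 (1.69 to 1.82), 1.65 on the rest of the chromosome and 1.43 on the rest of the short arm. GC content moved with place as well: the 201 bases around 1p36 control summits had a median GC content of 61.7%, against 53.7% on the rest of the chromosome. The part of base composition in these levels was not tested.

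The strongest peaks in 1p36 were at pseudogenes of mitochondrial origin. The highest fold enrichment, 45.4 in control and 57.6 in sgSNHG1, was at MTATP6P1 (633882 to 634218), with 7694 and 7205 fragments at the summit, and the next, 30.1 and 37.9, was at MTND2P28 (629693 to 630021), with 5103 and 4745 fragments. Both are nuclear copies of mitochondrial DNA. In the reference, 99.1% and 99.4% of their bases matched the mitochondrial genome, and the methods state that reads on the mitochondrial genome and reads with several hits were removed. Whether fragments from mitochondria remained at these copies was not tested. Without these peaks the median log2 ratio of the 1p36 pairs was -0.05, the same value as with them.

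Next in control came the promoter of MTOR, the kinase at the centre of growth and nutrient signalling, at 15.9 in control (84 fragments) and 13.6 in sgSNHG1 (59 fragments). CDK11A, a cell-cycle-related kinase gene, followed with 14.2 and 12.1, and then a promoter shared by LINC01409 and ENSG00000291215 with 13.7 and 13.6. An intronic site of DNAJC11, a gene for a mitochondrial co-chaperone, lay 29163 bases inside the gene and reached 12.8 and 11.5, above the 7.41 and 5.86 of the gene's own promoter. The promoter of HNRNPR, an RNA-binding protein, had 12.7 and 12.4, and that of CDK11B 12.5 and 8.22. In the sgSNHG1 list, PGD, a gene of the pentose phosphate pathway, was also among the 8 highest at 12.4, with 9.08 in control. Apart from the copies of mitochondrial DNA, none of these differences reached 2 counting errors.

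The question of the design, whether depletion of SNHG1 changed accessibility, was put to 1p36 first by the number of peaks. The sgSNHG1 list held 77 fewer peaks there, a log2 ratio of -0.16 (counting error 0.08), close to the -0.16 of the whole lists, while the rest of chromosome 1 had -0.06 (counting error 0.03). Peaks were also narrower in sgSNHG1, with a median width of 217 bases against 317 in control, and 79.2% of the 1p36 pairs and 78.3% of the other pairs on chromosome 1 were narrower in sgSNHG1. The narrowest peak in each whole list was 119 bases in control and 92 in sgSNHG1, and its part in the widths was not tested. The lower background of the sgSNHG1 list (1.72 fragments against 2.20) can bear on peak numbers, widths, -log10 q and peaks without a counterpart. Its part in these was not tested.

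Most 1p36 peaks were found in both lists. Of the 733 control peaks, 499 overlapped an sgSNHG1 peak, or 68.1% (64.6% to 71.3%), and 234 did not. These 234 were 31.9% of the members, where 33.3% of all control peaks had no counterpart. Of the 656 sgSNHG1 peaks, 519 overlapped a control peak, or 79.1% (75.8% to 82.1%), and 137 did not, which is 20.9% where 21.8% of the whole list had none. Against the rest of chromosome 1 the shared share differed by -2.64 points in control (-6.35 to 0.909) and by 1.53 points in sgSNHG1 (-1.98 to 4.74), both with intervals that included 0. Promoter peaks were shared more often than distal ones: 79.6% against 60.8% in control, and 88.8% against 72.5% in sgSNHG1.

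The 1p36 peaks without a counterpart were weak. In control their median -log10 q was 5.55 against 11.9 for shared peaks, their median width 219 bases against 391, and 24.8% were at promoters against 45.3%. In sgSNHG1 the medians were 4.65 and 8.79. Of the 323 control members with a -log10 q of at least 10, 20 had no sgSNHG1 peak at any strength, or 6.19% (4.04% to 9.37%), next to 6.0% on the rest of the chromosome. Of the 229 such sgSNHG1 members, 11 had no control peak, or 4.80% (2.70% to 8.40%), next to 3.79%.

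Among control peaks with no counterpart the highest fold enrichment was 7.96, at an intronic site 22194 bases downstream of the TSS of SLC25A33, a mitochondrial pyrimidine nucleotide carrier (9561617 to 9561935). It was followed by 7.22 at a site near RN7SL731P inside the body of KIF1B, 6.88 at the promoter of the long non-coding RNA ENSG00000233478 inside MAN1C1, 6.70 near ENSG00000287727 and 6.48 in the intergenic stretch near TAS1R2. Their summits held 23 to 28 fragments. Among sgSNHG1 peaks with no counterpart the highest were 11.4 near ENSG00000235146 (586122 to 586233) and 9.06 near DDX11L17 (181056 to 181185), both in the first megabase of the chromosome. The next, 8.91 and 8.09, lay in an intron of TTC34, and the last, at 7.38, lay upstream of CDA, a cytidine deaminase gene.

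TTC34 held 6 sgSNHG1 peaks without a control counterpart, 5 of them in 1 stretch of repeats in an intron, and the sequences of these 5 show what they have in common. They are given on the plus strand of GRCh38, as whole peaks of 93 to 151 bases with fold enrichments of 3.22 to 8.91, with capitals on AGCATCTGA, a word that was chosen after the sequences had been read. They lie at chr1:2654482-2654580, chr1:2657250-2657342, chr1:2671784-2671934, chr1:2682950-2683048 and chr1:2688061-2688156, in this order.
TTC34 intron at 2654482: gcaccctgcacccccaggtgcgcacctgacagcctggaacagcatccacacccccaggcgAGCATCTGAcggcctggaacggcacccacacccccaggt
TTC34 intron at 2657250: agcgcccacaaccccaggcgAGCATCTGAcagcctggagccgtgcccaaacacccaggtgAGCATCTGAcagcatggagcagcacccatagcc
TTC34 intron at 2671784: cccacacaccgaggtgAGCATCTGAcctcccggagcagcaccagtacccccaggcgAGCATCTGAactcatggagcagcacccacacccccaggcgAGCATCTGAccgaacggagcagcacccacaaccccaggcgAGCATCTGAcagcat
TTC34 intron at 2682950: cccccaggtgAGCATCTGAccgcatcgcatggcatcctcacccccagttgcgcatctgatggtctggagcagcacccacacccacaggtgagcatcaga
TTC34 intron at 2688061: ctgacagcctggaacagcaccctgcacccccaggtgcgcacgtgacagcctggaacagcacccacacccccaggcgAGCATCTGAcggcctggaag
The word occurred 1, 2, 4, 1 and 1 times in these peaks. In all, 1.52% of the sgSNHG1 members and 1.09% of the control members held it. With 200 bases added on each side, between 4.49% and 53.6% of the 20-base words of one peak were found again in another. Control had peaks in the same array too, some of them overlapping sgSNHG1 peaks, such as the one at 2659910 to 2660132 with a fold enrichment of 10.3 (10.6 in sgSNHG1). In such repeats a fragment can match several places. Reads with several hits were removed per the methods, and the part of the repeats in these peaks was not tested.

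For the sites found in both lists, 499 pairs of best mutual overlap could be compared. By fold enrichment the pairs leaned lower in sgSNHG1, with a median log2 ratio of -0.05 (-0.07 to -0.02) and 56.9% of pairs below 0, against 50.6% on the rest of chromosome 1. The difference was 6.31 points (1.59 to 10.9). By scaled pileup, the summit pileup as a multiple of the list's own genome-wide background, the direction was the opposite: the median was 0.11 (0.08 to 0.15) and 62.7% of pairs were above 0, against 55.8% on the rest of the chromosome (6.91 points, 2.24 to 11.4). Fold enrichment differs from scaled pileup by the local background and by the 1 added to pileup and background before any scaling. The scaled local background was higher in sgSNHG1 at a median log2 ratio of 0.11 (0.08 to 0.13), the same median as scaled pileup. It was lower in 26.9% of the pairs only, against 47.6% elsewhere on the chromosome (-20.8 points, -24.9 to -16.3). The part of each term in the opposite directions was not tested. The direction of the 1p36 pairs as a whole therefore depended on the scale.

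**Figure D2:**
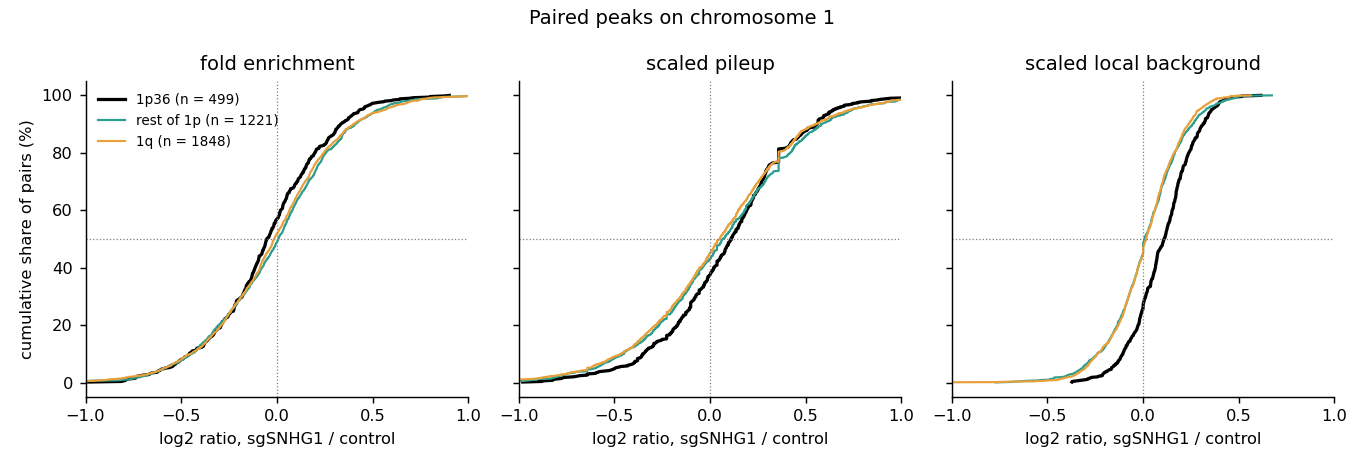
Cumulative share of paired peaks (%) by log2 ratio of sgSNHG1 over control, for fold enrichment, scaled pileup and scaled local background, in 1p36, the rest of the short arm and the long arm. Dotted lines mark a ratio of 0 and 50% of pairs; the 1p36 curve lies left of the others for fold enrichment in its upper part, right of them for scaled pileup in its lower and middle part, and well to the right for background, where its median is 0.11.

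The shift in background was not particular to 1p36. In blocks of 28 Mb across the genome, a division made after the data had been seen, 106 blocks held at least 100 pairs, and 5 of the other 105 had a higher median background ratio than 1p36. One of them was the next block of chromosome 1, from 28 to 56 Mb, at 0.12. Over the rest of the chromosome the medians ran down to -0.07, and the lowest of the genome was -0.97, on chromosome 9. Of the other 105 blocks, 11 had a higher GC content than the 62.2% of the 1p36 pairs. In 4 GC classes of chromosome 1 pairs the 1p36 pairs had median background ratios of 0.07, 0.13, 0.10 and 0.11 from the lowest to the highest class, against -0.00, 0.02, 0.04 and 0.01 on the rest of the chromosome. The other measures were less even. Fold enrichment was lower in 48.7%, 52.5%, 60.0% and 58.2% of the 1p36 pairs by class, against 43.1%, 50.6%, 49.4% and 61.2%, so the direction of the difference turned in the highest class, which held 189 of the 499 pairs. The median scaled pileup ratio was 0.19, 0.15, 0.08 and 0.12, against 0.12, 0.07, 0.08 and -0.03. The parts of base composition and of copy number differences between the clones in these shifts were not tested.

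**Figure D3:**
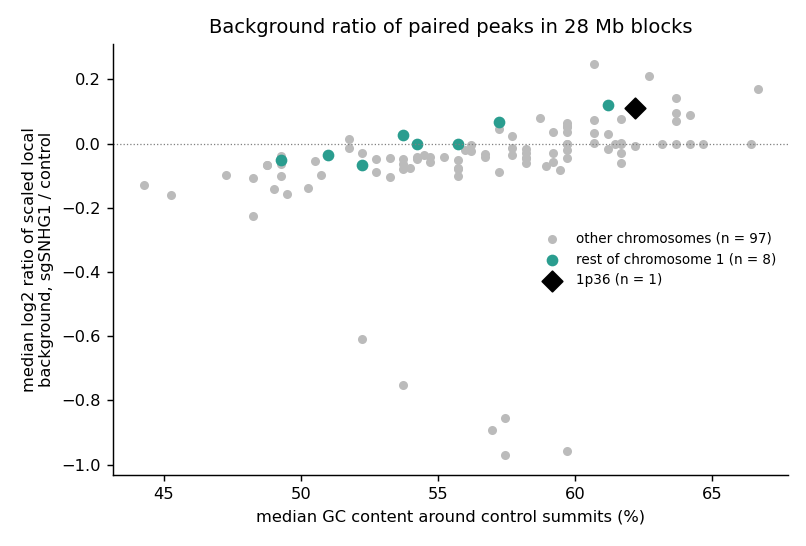
Median log2 ratio of scaled local background (sgSNHG1 over control) against median GC content (%) around control summits, for the paired peaks of each 28 Mb block. The diamond is 1p36 at 0.11 and 62.2%, the larger circles are the other blocks of chromosome 1, from -0.07 to 0.12, and the small grey circles are the blocks of other chromosomes, down to -0.97.

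Within 1p36 the background ratio was above 0 in every stretch. In 7 consecutive windows of 4 Mb its median ran from 0.06 to 0.17, with no interval that included 0. The median scaled pileup ratio ran from 0.03 to 0.21, and its interval included 0 in the windows from 16 to 20, 20 to 24 and 24 to 28 Mb. The window from 0 to 4 Mb had the largest deficit, with 132 control peaks against 100, and a log2 ratio of -0.40 (counting error 0.19). The window from 12 to 16 Mb, which holds the PRAMEF genes, had the fewest peaks and was the only one with more in sgSNHG1, 61 against 70 (0.20, counting error 0.25). The remaining windows held 101 to 117 control peaks and 93 to 102 sgSNHG1 peaks.

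Few pairs differed much. A log2 ratio of fold enrichment of -0.5 or lower was seen in 40 of the 499 pairs, or 8.02%, where 9.06% of all pairs in the lists were as low. A ratio of 0.5 or higher was seen in 14, or 2.81%, where 5.37% of all pairs were as high. The ratio was beyond 2 counting errors in 6 pairs, or 1.2%, where 2.68% of all pairs and 3.45% on the rest of chromosome 1 were. The 6 are named as a description and are not a result about 1p36. Of the 3 higher ones, 2 were the copies of mitochondrial DNA and the other was the promoter of CFAP107, a gene of the ciliary axoneme (4.71 in control and 8.79 in sgSNHG1, 0.90 ± 0.45). The 3 lower ones were the promoter of NBL1, described below, an intergenic site near ENSG00000284666 (-0.80 ± 0.36) and an intronic site near CAMTA1-AS1 (-0.78 ± 0.39).

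In the 192 pairs that reached a -log10 q of 10 on both sides, the log2 ratios ran from -0.61 to 0.69 around a median of 0.02. The lowest was at the CDK11B promoter (-0.61 ± 0.38, counting error), with 12.5 in control and 8.22 in sgSNHG1. It was followed by the promoter of STX12, an endosomal syntaxin (-0.55 ± 0.34), an exonic site whose nearest TSS is that of the pseudogene RPL21P29 (-0.53 ± 0.33), and the promoters of NOL9, a kinase of ribosomal RNA processing (-0.51 ± 0.39), and WASF2, an actin regulator (-0.46 ± 0.37). The highest was at an intronic site inside the body of KCNAB2 (0.69 ± 0.37), with 4.95 in control and 8.01 in sgSNHG1. Its nearest TSS was that of NPHP4, a ciliary gene, with the control summit at -66449 bases. Next came an intronic site inside MAN1C1 (0.61 ± 0.36) and the promoter of UBR4, a ubiquitin ligase (0.53 ± 0.35). The TSS nearest to the MAN1C1 site was that of SELENON, with the control summit at -56428 bases. They were followed by a site near ENSG00000287586 in the region of AJAP1 (0.51 ± 0.30) and an exonic site within the body of RERE (0.49 ± 0.32). The TSS nearest to the RERE site was that of the pseudogene ENSG00000270282, with the control summit at 13372 bases. None of the 10 was beyond 2 counting errors.

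The widest control peaks were at promoters and 1 intergenic site. They measured 1385 bases at that site near DPPA2P2, 1369 at PDIK1L, 1256 at MACO1, 1180 at the long non-coding RNA ENSG00000289452 and 1177 at HP1BP3.

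Promoters were then read by gene. Of the 979 gene records of all kinds in 1p36, 318 had a promoter peak in both lists, 46 in control alone and 21 in sgSNHG1 alone. The 46 were 11.9% of the records with a promoter peak, where 12.8% of all records in the annotation had it in control alone, and the 21 were 5.45%, where 5.03% had it in sgSNHG1 alone. For protein-coding genes alone the counts were 205, 22 and 11, and the shares 9.24% and 4.62% stood beside 9.52% and 2.84% over all chromosomes. Where a gene had a peak in each list, the highest one of each was compared, and the median log2 ratio over the 205 genes was -0.05 for fold enrichment, with 115 lower. The same genes had a median of 0.11 by scaled pileup, with 67 lower. The peaks compared at a gene could be different sites, as at ARID1A, E2F2, RCC2 and HES3 of the gene lists below. At RPS6KA1 they overlapped but were not a pair of best mutual overlap. The ratios of these genes are part of the counts and medians of their lists.

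Of the 20 genes put forward as 1p36 tumor suppressors or otherwise tied to NB, 14 had a peak at the promoter in each list. By fold enrichment 4 were lower and 10 higher in sgSNHG1, and the median log2 ratio was 0.08, against -0.05 over all protein-coding 1p36 genes. By scaled pileup 3 were lower, and the median was 0.15, against 0.11 over all protein-coding 1p36 genes, so the difference in sign depended on the scale. None differed by more than 2 counting errors. CAMTA1, a calmodulin-binding transcription activator, had 8.84 in control and 9.54 in sgSNHG1. KIF1B, a kinesin motor gene, had 7.68 and 8.53, and its body held the control peak near RN7SL731P that had no counterpart. CASZ1, a zinc finger factor of neuronal differentiation, had 5.43 and 5.64. TP73, a transcription factor gene, had 6.98 and 7.58 at a site upstream of its TSS. The control summit there was at -2410 bases, inside the promoter window but not at the TSS itself. For each of these genes the lists differed by less than 1 counting error.

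KCNAB2, a potassium channel subunit, had the highest ratio of this group (0.27 ± 0.25), with 8.87 in control and 10.7 in sgSNHG1. CENPS, a histone-fold protein of the kinetochore, had the lowest (-0.54 ± 0.39), with 7.48 and 5.14. CHD5, a chromatin remodeler of neurons, RUNX3, MIR34AHG and TNFRSF25 had no promoter peak in either list. CHD5 did have peaks within its body, 5 in control and 3 in sgSNHG1. EPHA2, a receptor tyrosine kinase, had a weak promoter peak in control alone (3.73, 17 fragments), and AJAP1, an adhesion protein, had one in sgSNHG1 alone (3.36, 15 fragments).

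Of the 18 chromatin and transcription regulators, 13 had a promoter peak in both lists, 8 of them lower in sgSNHG1, with a median log2 ratio of -0.06. RERE, a corepressor, had 9.89 and 9.47, and KDM1A, the histone demethylase LSD1, had 9.57 and 8.37. ARID1A, a subunit of the BAF remodeling complex, had 6.21 and 5.29, although its highest peaks in the lists were different sites. HP1BP3, a heterochromatin protein, had 6.03 and 4.65, and ZNF436, a zinc finger gene, had 6.58 and 8.63. HMGN2, a nucleosome-binding protein, had a promoter peak in control alone, with a fold enrichment of 6.06 and 31 fragments. ZBTB40 had one in sgSNHG1 alone, at 4.41, and CHD5, PRDM16 and PADI4 had none. By scaled pileup 4 of the 13 were lower, with a median of 0.09, so the direction of this group depended on the scale.

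Of the 20 genes of neural differentiation and signalling, 10 had a promoter peak in both lists and 7 had none: HES2, HES4, EPHA8, CAMK2N1, GABRD, PRKCZ and PAX7. In the group, 3 were lower and the median log2 ratio was 0.06. By scaled pileup 3 were lower too, with a median of 0.21. NBL1 encodes a secreted antagonist of bone morphogenetic proteins. Its promoter peak lies at the start of its gene record. That peak is also that of the readthrough gene MICOS10-NBL1 and of the long non-coding RNA MICOS10-DT. The value therefore does not belong to NBL1 alone. Both names carry that of MICOS10, and whether the peak belongs to MICOS10 rather than to NBL1 was not tested. The difference at this peak was the largest by fold enrichment of all protein-coding 1p36 promoters with a peak in both lists. Its fold enrichment was 8.91 in control (34 fragments) and 4.50 in sgSNHG1 (15 fragments). The log2 ratio of -0.98 ± 0.45 exceeded 2 counting errors, and the scaled pileup ratio was -0.82. By scaled pileup the CFAP107 promoter differed more, at 1.5 (log2). STMN1, a microtubule-destabilizing protein of neurons, had 5.70 in control and 7.83 in sgSNHG1 (0.46 ± 0.37), and EPHB2, an ephrin receptor, had 4.07 and 5.60 (0.46 ± 0.48), both within 2 counting errors. ID3, an inhibitor of differentiation factors, had 6.55 and 5.91 at a site upstream of its TSS, with the control summit at -2989 bases. WNT4 had a weak peak in control alone (3.37).

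Of the 20 genes of growth, translation and metabolism, 18 had a promoter peak in both lists. This was the group with the fewest genes lacking one, as PARK7 alone had none and ATP13A2, a lysosomal transporter, had one in control alone (4.82). The median log2 ratio was 0.03, with 8 lower. MTOR (-0.22 ± 0.25), CDK11A (-0.22 ± 0.31) and EIF4G3, a translation initiation factor (-0.45 ± 0.35), had lower values in sgSNHG1. PGD (0.45 ± 0.26), RPL11, a ribosomal protein (0.40 ± 0.38), and NMNAT1, an enzyme of NAD synthesis (0.64 ± 0.44), had higher ones. ENO1, the glycolytic enolase, had 6.40 and 5.65, and SDHB, a subunit of succinate dehydrogenase, had 8.09 and 9.28. By scaled pileup the median of the group was 0.21, with 6 lower.

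**Figure D4:**
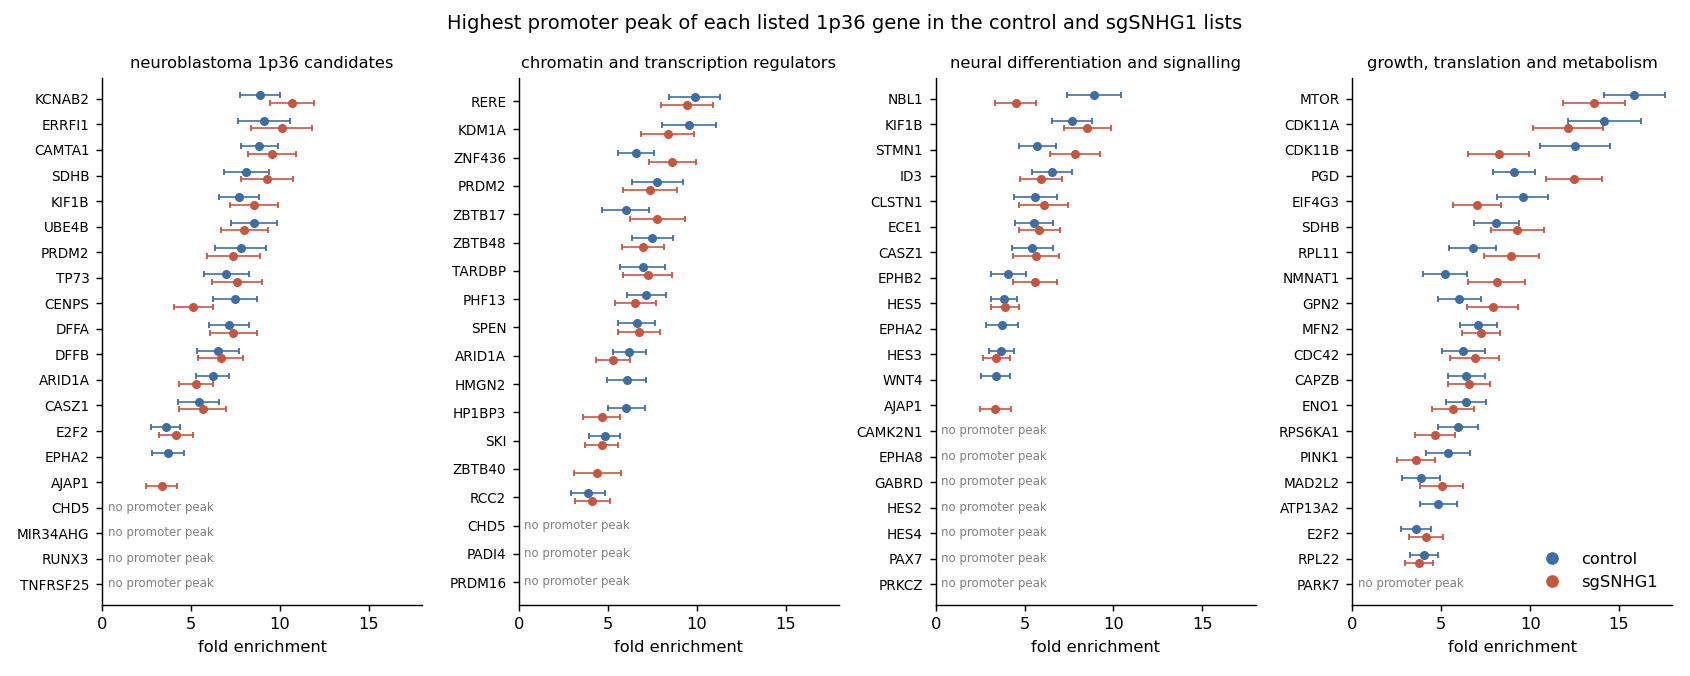
Fold enrichment of the highest promoter peak of each listed 1p36 gene in control (blue) and sgSNHG1 (red), with bars of 1 counting error from the number of fragments at the summit. Most bars overlap within a gene, NBL1 has the widest separation (8.91 and 4.50), and genes with no promoter peak in either list are named as such.

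Distal peaks were read by gene body, for the 12 protein-coding genes with the most control peaks, an order that was set after the values were known. CAMTA1, which spans 984 kb, held 29 control and 25 sgSNHG1 peaks, of which 24 and 23 were shared. KAZN, a gene for an adhesion-related protein, held 15 in each list. PRDM16, a histone methyltransferase family gene without a promoter peak, held 14 in control and 7 in sgSNHG1, with 10 of the 14 lacking a counterpart. Its neighbour MEGF6 held 11 and 5, with 8 lacking one, and CASZ1 held 8 and 3, with 5 lacking one. Of all control peaks 33.3% lacked a counterpart, and of the distal 1p36 ones 39.2%, and an order by control peaks favours genes with more peaks in control. The unmatched control peaks in these bodies were weak, with -log10 q from 2.16 to 9.34 in PRDM16, 3.67 to 7.79 in MEGF6 and 4.24 to 9.15 in CASZ1. RERE (10 and 12) and ECE1, an endothelin-converting enzyme (11 and 12), held slightly more in sgSNHG1. No counting interval was set on these numbers, because peaks of 1 gene share their surroundings.

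The short sequences named above, and a few others, were counted around all members. Within 100 bases of control summits GGGCGG stood in 35.2% of 1p36 peaks against 23.3% on the rest of chromosome 1 (11.9 points, 8.33 to 15.7). CCGGAAG stood in 6.82% against 3.96% (2.86 points, 1.14 to 4.99), and CACGTG in 6.14% against 3.86% (2.27 points, 0.635 to 4.32). Against the rest of the short arm alone the differences were 8.74 points for GGGCGG (4.75 to 12.8), 1.52 for CCGGAAG, with an interval that included 0 (-0.467 to 3.79), and 2.41 for CACGTG (0.588 to 4.54). The AP-1 word TGANTCA was found in 5.18% against 6.99% (-1.81 points, -3.41 to 0.178) and CCAAT in 22.6% against 25.9% (-3.23 points, -6.41 to 0.184). AGGTGGCAG, the core of the CTCF motif, was found in 1.23% and 1.31%, and GCATGCGC, the NRF1 word, in 1.64% and 0.989%, with intervals of the difference that included 0. In the sgSNHG1 list CACGTG stood in 5.03% against 3.77% (1.26 points, -0.297 to 3.28), an interval that included 0, and against the rest of the short arm the difference was 1.81 points (0.0847 to 3.90). The lists were not tested against each other. There TGANTCA stood in 6.10% against 8.62% (-2.53 points, -4.35 to -0.274). All words were counted on both strands. These windows were richer in GC in 1p36, as given above, and the part of base composition in the shares was not tested.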

How the data were processed

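ATAC-seq was done on 2 control and 2 sgSNHG1 samples of SK-N-BE(2)C. The authors trimmed adaptors (cutadapt), aligned reads to GRCh38 (BWA), marked duplicates (GATK, Picard), removed duplicates, reads with several hits and mitochondrial or blacklisted reads, shifted read ends for Tn5 (deepTools), combined the replicates and called peaks on paired-end fragments (MACS2, ChIPseeker for annotation). Tool versions and the peak threshold are not given in the sources used here. Each deposited list gives the fold enrichment at the summit (a ratio) with its -log10 p and -log10 q, and the lowest -log10 q was 2.00 in control and 2.01 in sgSNHG1.

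Summit pileup and local background were solved from fold enrichment and -log10 p under the Poisson model of MACS2, within 0.001 for all but 1 control peak, and scaled by each list's lowest background (2.20 and 1.72). Peaks overlapping by at least 1 base were shared, and mutual best overlaps were pairs. Genes were from GENCODE 44. The short arm was set to end at the longest stretch without control peaks (18.0 Mb). A counting error is the Poisson error of a log2 ratio from both pileups. Intervals were Wilson (shares), Newcombe (differences) and order-statistic (medians), all 95%, from Python 3.11.15 with numpy 2.4.6, pandas 2.3.3, scipy 1.17.1 and matplotlib 3.10.9, checked on simulated data. Named genes were those of 4 lists (69 genes), the 8 strongest control peaks, the 5 strongest unshared peaks of each list, the 5 lowest and 5 highest strong pairs, the 5 widest control peaks and the peaks at the 28 Mb border. PGD among the strongest sgSNHG1 peaks, the gene families, the gene bodies, TTC34 and the pairs beyond 2 counting errors were named after their values were seen. The members and lists were chosen with earlier results of these data known.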

Additional observations from a re-analysis of the deposited data

How the results depend on the processing

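No paired analysis was possible because the replicates were combined in each list. Requiring a -log10 q of at least 5 left 594 control and 483 sgSNHG1 peaks (log2 ratio -0.30) and put the shared sgSNHG1 share at 83.0%. At 10, 323 control and 229 sgSNHG1 peaks were left (log2 ratio -0.50), shared shares were 60.1% and 86.0%, promoter shares 49.8% and 55.9%, the median log2 ratio of pairs turned to 0.021 and the excess of lower pairs over the rest of chromosome 1 to -0.78 points. The difference in shared control peaks became -12.6 points, where a counterpart under the limit no longer counts, and the promoter difference was 4.10 points with an interval that included 0, as it did against the rest of the short arm (3.08). With overlap of 50% of both peaks, 46.7% and 52.1% were shared. By scaled pileup the median ratio was 0.11 and the excess of lower pairs -6.91 points. Promoter shares were 32.1% and 33.1% at 1 kb, 30.6% and 33.1% for protein-coding genes, and 52.5% and 55.0% with any transcript. The ratio of distal background to the rest of chromosome 1, 1.00 in control and 1.07 in sgSNHG1, was 1.17 and 1.24 against the rest of the short arm and 1.03 and 1.11 beyond 10 kb from any TSS. Genes with a promoter peak in sgSNHG1 alone numbered 12 at 1 kb. For protein-coding genes, 22 had one in control alone and 11 in sgSNHG1 alone. The other values kept their direction, and counts stayed within 1.5 times. The restriction to protein-coding genes, the run without copies of mitochondrial DNA, the GC classes, the genome blocks, the gene families, the gene bodies and the repeat word were chosen after seeing the data. Summits of about 20 fragments limit single peaks to large differences.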
